A study of Mus musculus with 12 samples.

Results

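The genes described here are the histone lysine methylases and demethylases of the mouse, chosen by name. A gene counted as a member when the GENCODE annotation listed it as protein-coding with a symbol starting with Kdm, Kmt, Setd, Nsd, Suv39h, Ehmt or Dot1l, leaving out Kdm2b. This rule took 44 of the 51467 genes in the deposited count table. The rule also took Nsdhl, a sterol dehydrogenase of cholesterol synthesis that shares only its first letters with the Nsd methylases, so 43 members belong to the enzyme families and Nsdhl is counted but set apart.

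Histone lysine methylases transfer methyl groups from S-adenosylmethionine to lysines in histone tails, mostly through a SET domain. Demethylases remove them, either by a flavin-dependent amine oxidase (the Kdm1 proteins) or by the JmjC domain, which uses iron, oxygen and 2-oxoglutarate. The position of the lysine sets the meaning of the mark: methylated H3K4 lies at promoters and enhancers in use, H3K36 and H3K79 methylation over transcribed genes, and trimethylated H3K9, H3K27 and H4K20 in silent chromatin. In pluripotent cells these enzymes are known for guarding lineage genes and retroviruses while the epiblast prepares for lineage choice.

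Naive embryonic stem cells (ESCs) were compared with the epiblast-like cells (EpiLCs) they give rise to. ESCs were grown with LIF and 2i, a pair of kinase inhibitors, and EpiLCs were collected 56 h after both were removed. According to the methods of the study, the cells were of a single reporter line (miR290-mCherry and miR302-GFP), so both groups carried both reporters and all values describe that line. All cultures received 500 µM 4-thiouridine (4sU) for 30 min before lysis, ESCs and EpiLCs alike, and each extract was divided: labelled molecules were biotinylated and captured as nascent RNA (4sU libraries), and the unselected RNA was depleted of ribosomal RNA (total libraries). Each of the 4 groups, ESC 4sU, ESC total, EpiLC 4sU and EpiLC total, had 3 libraries.

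The 4sU libraries held 3097693 to 5385644 gene reads and the total libraries 9300845 to 21975684, so nascent values carry more counting error. Members took 0.594 to 0.692% of the reads of a 4sU library and 0.490 to 0.560% of a total library. Markers fitted the labels: all 6 naive genes were called lower in EpiLC total RNA (summed level 1325 to 1500 CPM in ESCs, 34.6 to 38.4 in EpiLCs), and 4 of 5 formative genes were called higher (134 to 146 against 1250.0 to 1528 CPM), Lef1 being the exception. Pou5f1 and Sall4, shared pluripotency genes, were not called in total RNA and summed to 1076 to 1087 CPM in ESCs and 778 to 800.1 in EpiLCs. CPM stands here for counts per 1e+06 reads of a library, with library sizes adjusted by edgeR's TMM factors except in these sums over marker lists, which use plain library totals. Markers of other cells moved too, at low levels. Of 6 fibroblast genes, 3 passed the expression filter and Col1a2 and Dcn were called higher in EpiLCs (summed total level 3.47 to 4.23 against 13.98 to 18.2 CPM, with Dcn at 0 reads in ESCs and Col1a1, Col3a1 and Postn below the filter). Of 2 neural genes Pax6 was called higher (sum 9.48 to 16.4 against 24.6 to 31.4 CPM), of 3 mesendoderm genes 2 were called higher (9.52 to 22.6 against 18.9 to 28.7), and of 4 primitive endoderm genes, with Gata6 below the filter, 1 was called higher and 1 lower (4.40 to 9.52 against 6.85 to 8.49). The part of these cells in the members' values was not tested, and in such bulk samples fewer cells of a type and less RNA per cell cannot be told apart.

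Some members read high in ESC total replicate 3. In it 7 of 42 members (16.7%) lay over 1.5 times the mean of the other ESC total libraries, and 0 lay under it by the same factor, where 11.8% of all genes tested were over and 5.99% under, so the members' share was not far from the background. Those members were Kmt2d (2.29 times), Setd7 (2.17), Kdm6b (2.07), Kmt2c (1.76), Nsd3 (1.69), Kmt2b (1.66) and Kmt2a (1.5). In the 4sU library of the same number 0 members passed that factor in either direction, where 10.3% of all genes tested were over and 8.96% under. Members ran there from 0.674 times (Kdm4c) to 1.47 times (Setd7), close to the factor. Values without ESC total replicate 3 are given beside each of the 7 members over the factor in it that was called.

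Differences between the cell types were common among the members but seldom large. Of the 44 members, 42 reached 3 CPM in at least 3 libraries and were tested together with all other genes (14731 in all). The other pair were Kdm4d, with 0 to 9 reads per library, and Kdm5d, the copy of Kdm5c on the Y chromosome, with 0 to 5. A gene was called at a Benjamini-Hochberg adjusted p under 0.05 in limma-voom and a log2 fold change over 1 in size. By that rule 8 of 42 members (19.0%) changed in total RNA, against 27.6% of all genes tested: 7 rose in EpiLCs (background for rises 16.3%) and 1 fell (background 11.2%). Taken by adjusted p alone, 34 of 42 members differed (81.0%, background 63.5%), 22 higher and 12 lower. The median mRNA change was 0.33 on the log2 scale for members and 0.02 for all genes tested.

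In nascent RNA 3 of 42 members were called (7.14%, background 25.5%), 1 higher (background 11.9%) and 2 lower (background 13.5%). Adjusted p alone took 26 members (61.9%, background 52.5%), 17 of them higher and 9 lower. The median nascent change was 0.16 for members and -0.09 for all genes. Libraries of the cell types did not overlap for 36 of 42 members in total RNA (background 68.6%), 21 with EpiLC above and 15 below, and for 30 in 4sU RNA (background 60.7%), 20 above and 10 below. Most members therefore differed between the cell types by an amount that replicates resolved and that was under 2-fold.

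**Figure D1:**
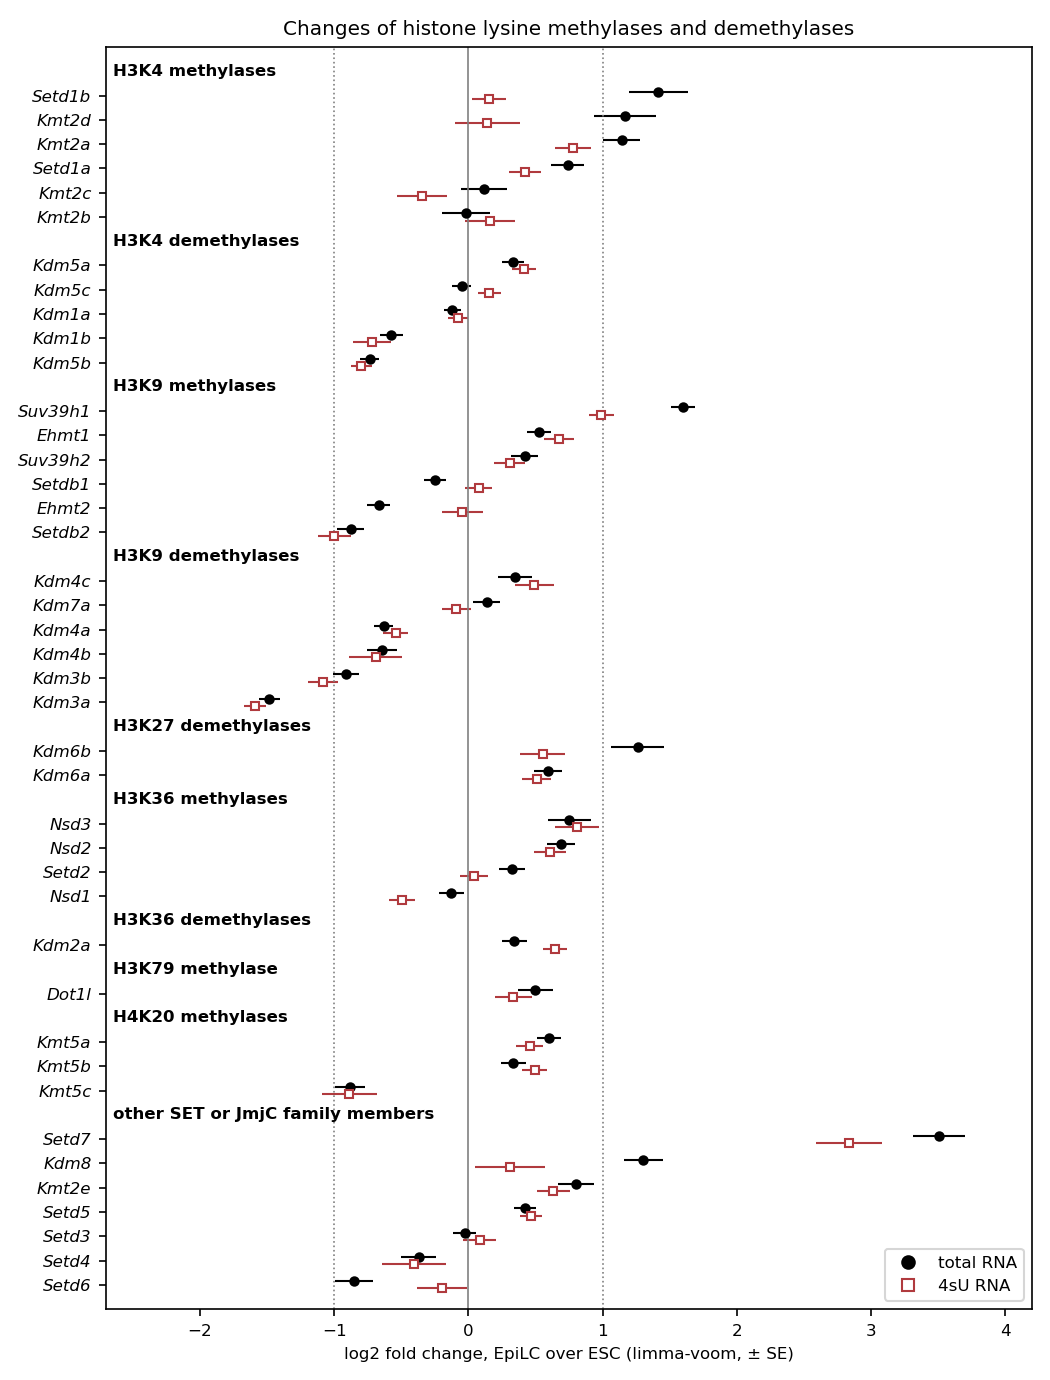
Log2 fold change from ESC to EpiLC (horizontal axis, with bars of 1 standard error from limma-voom) of the 41 tested family members, grouped by the lysine they act on, in total RNA and in nascent RNA; dotted lines mark a log2 fold change of 1 in size. Setd7 lies farthest to the right (3.51 in total RNA, 2.84 in nascent RNA) and Kdm3a farthest to the left (-1.48 and -1.59), while most other members lie inside the lines.

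The start regions of the genes with the largest nascent changes are shown so that the sequence can be read beside the values. RefSeq windows of 300 bases (250 before to 50 after the start, build GRCm38.p6, the coordinates of mm10) were found for 33 of 44 members. From members with a window, the pair with the largest rise and the pair with the largest drop in fitted nascent level were taken, Setd7 and Suv39h1, then Kdm3a and Setdb2. Kdm3b, whose nascent drop was called and larger than that of Setdb2 (-1.09 against -0.998), had no window. All of them lie on the minus strand and are written 5′ to 3′ along the gene. Capitals mark matches to the GC box, letters GGGCGG, or to the palindrome bound by STAT3, letters TTCNNNGAA, both searched on both strands.
Setd7, chr3:51560774-51561073: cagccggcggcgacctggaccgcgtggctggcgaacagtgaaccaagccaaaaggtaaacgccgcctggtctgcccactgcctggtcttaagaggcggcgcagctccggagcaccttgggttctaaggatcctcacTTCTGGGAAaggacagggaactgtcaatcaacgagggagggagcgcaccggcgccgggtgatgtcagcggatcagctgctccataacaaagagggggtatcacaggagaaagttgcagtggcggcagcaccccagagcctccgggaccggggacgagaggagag
Suv39h1, chrX:8074711-8075010: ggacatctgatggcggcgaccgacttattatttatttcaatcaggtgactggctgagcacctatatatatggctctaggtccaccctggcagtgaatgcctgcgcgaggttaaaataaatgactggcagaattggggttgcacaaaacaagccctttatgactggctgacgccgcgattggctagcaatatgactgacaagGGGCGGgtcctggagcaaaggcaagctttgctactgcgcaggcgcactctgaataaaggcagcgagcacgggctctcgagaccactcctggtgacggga
Kdm3a, chr6:71632868-71633167: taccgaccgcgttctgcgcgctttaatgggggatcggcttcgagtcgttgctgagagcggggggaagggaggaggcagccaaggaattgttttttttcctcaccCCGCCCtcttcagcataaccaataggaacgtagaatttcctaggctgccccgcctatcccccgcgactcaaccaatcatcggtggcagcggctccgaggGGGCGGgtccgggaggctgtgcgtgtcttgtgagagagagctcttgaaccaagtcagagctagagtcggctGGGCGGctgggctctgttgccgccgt
Setdb2, chr14:59440831-59441130: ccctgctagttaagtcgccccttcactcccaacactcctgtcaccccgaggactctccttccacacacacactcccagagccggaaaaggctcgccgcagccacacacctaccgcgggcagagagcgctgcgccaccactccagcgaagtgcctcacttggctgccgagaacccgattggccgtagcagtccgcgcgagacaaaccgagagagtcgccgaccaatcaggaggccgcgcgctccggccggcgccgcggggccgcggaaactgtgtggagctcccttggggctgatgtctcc

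Setd7 had 1 STAT3 palindrome, 114 bases before its start. Suv39h1 had 1 GC box and Kdm3a had 3, and Setdb2 had neither motif. These windows held 15 to 29 CpG dinucleotides (15 in Suv39h1, 29 in Setdb2). Over the 33 members with a window the median was 24 CpG (0 to 65), against 7 over all 32851 windows. A GC box was found in 22 of 33 member windows (66.7%) and in 35.7% of all windows. Each member gave only the window nearest its counted gene start. All windows hold several for some genes and were not limited to the genes tested, so these backgrounds are unlike sets. The other motifs were as frequent among members as elsewhere or rarer, with few matches: the STAT3 palindrome in 6.06% against 8.3%, the E-box CACGTG in 6.06% against 7.15%, the ESRRB site AAGGTCA in 3.03% against 4.72%, the OTX2 site TAATCC in 6.06% against 7.06%, the hypoxia response element ACGTG in 18.2% against 19.6% (an E-box holds this motif), and the octamer ATGCAAAT in 0% against 1.74%. The CRE, TGACGTCA, was found in 3.03% against 1.79%. A match describes the letters in this window and no binding was measured.

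The H3K4 methylases were mostly higher in EpiLC total RNA. These are the large SET proteins of the COMPASS complexes: Kmt2a and Kmt2b (MLL1 and MLL2, which work with menin), Kmt2c and Kmt2d, which place monomethyl marks at enhancers, and Setd1a and Setd1b, which place the trimethyl mark at active promoters. In total RNA 3 of 6 rose (Setd1b, Kmt2d and Kmt2a; background for rises 16.3%), though only Setd1b without ESC total replicate 2. A 4th, Setd1a, was higher at an adjusted p under 0.05 with a log2 fold change of 0.74, and the median change was 0.94. In nascent RNA 0 of 6 were called by limma-voom (background 25.5%), edgeR or DESeq2, and 2 had an unadjusted p under 0.05 in each. In limma-voom 8552 of 14731 genes tested had such a p. The group's median nascent change was 0.16. Summed over the group and scaled by exonic length, their level was 24.7, 24.2 and 41.6 RPKM (CPM per kilobase of exon) in ESC total replicates 1, 2 and 3, and 41.8, 39.9 and 41.5 in EpiLCs. ESC replicate 3 thus lay within the EpiLC range for this sum.

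Setd1b (chr5:123142193-123168629) had the lowest length-scaled total level of all tested members in ESCs, 0.402 ± 0.051 RPKM (SD, n = 3). Its total level was 3.13, 3.52 and 4.03 CPM in the ESC libraries and 9.82, 7.77 and 10.7 CPM in the EpiLC libraries. Every EpiLC library lay above every ESC library, and the log2 fold change was 1.42 ± 0.22 (SE, adjusted p = 5.83e-05). In 4sU RNA it stood at 90.8, 92.1 and 67.0 CPM in ESCs and 89.3, 101 and 86.9 in EpiLCs, with overlap between the cell types (0.15 ± 0.12, adjusted p = 0.319). The gene was thus well represented in nascent RNA and scarce in total RNA in both states.

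Kmt2d (chr15:98831669-98871204), the longest member by exonic length, stood at 58.8, 59.8 and 136 CPM in ESC total RNA and at 182, 164 and 171 in EpiLC total RNA. ESC replicate 3 was the highest of its group, yet below all EpiLC libraries. The log2 fold change was 1.17 ± 0.23 (adjusted p = 0.000468), and it was 1.54 without ESC total replicate 3. Without ESC total replicate 1 or 2 it was 0.96 or 0.97, under the threshold for a call. Nascent Kmt2d was 181, 171 and 223 CPM in ESCs and 234, 222 and 173 in EpiLCs, which overlap (0.14 ± 0.24, adjusted p = 0.655).

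Kmt2a (chr9:44803355-44881296) stood at 65.0, 54.9 and 90.2 CPM in ESC total RNA and at 156, 139 and 155 in EpiLC total RNA. No libraries overlapped, and the change was 1.14 ± 0.14 (adjusted p = 4.3e-06), 1.33 without ESC total replicate 3 and 0.98, no longer called, without ESC total replicate 2. Its nascent RNA was also higher, 228, 224 and 198 CPM against 398, 383 and 337, by 0.78 ± 0.14 (adjusted p = 0.000276). Kmt2b, which had the highest length-scaled ESC level of the group, showed no such difference: it was 78.7, 82.5 and 134 CPM in ESC total RNA and 93.3, 92.3 and 93.5 in EpiLC total RNA (-0.02 ± 0.18, adjusted p = 0.929). ESC replicate 3 lay above all EpiLC libraries and the others below them, and the sign of the change turned without that library (0.21). Kmt2c had a total change of 0.11, which was 0.37 without ESC total replicate 3 (adjusted p = 0.00442), and a nascent change of -0.35.

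The H3K4 demethylases, Kdm1a, Kdm1b and the JmjC proteins of the Kdm5 family, held 0 calls in either assay among 5 tested, by limma-voom, edgeR or DESeq2. The background in limma-voom was 27.6% in total and 25.5% in nascent RNA. In each assay 3 had an unadjusted p under 0.05 in limma-voom and in edgeR, and 4 in DESeq2. In limma-voom such a p was found for 9833 of 14731 genes tested in total RNA and for 8552 in nascent RNA. By adjusted p, Kdm5a was higher in total RNA (0.33), and Kdm5b (-0.74) and Kdm1b (-0.57) were lower. Nascent changes lay close by, at 0.42, -0.80 and -0.72. Kdm5c, the X-linked member, had a total change of -0.05, whose sign turned when libraries were scaled by their totals, and a nascent change of 0.16. Kdm1a (LSD1), the amine oxidase that works with CoREST, had the highest length-scaled level of all members in both states, 140 ± 6.34 RPKM in ESC and 128 ± 1.79 in EpiLC total RNA. In CPM its libraries were 421, 413 and 450.0 in ESCs and 388, 393 and 399 in EpiLCs, the EpiLC libraries all just below (-0.12, adjusted p = 0.105). Kdm5b stood second in ESCs, at 71.9 ± 2.14 RPKM, and at 43.1 ± 0.63 in EpiLCs, where it differed little from Ehmt2, Kdm4c and Kdm5c (each between 43.1 and 43.4).

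**Figure D2:**
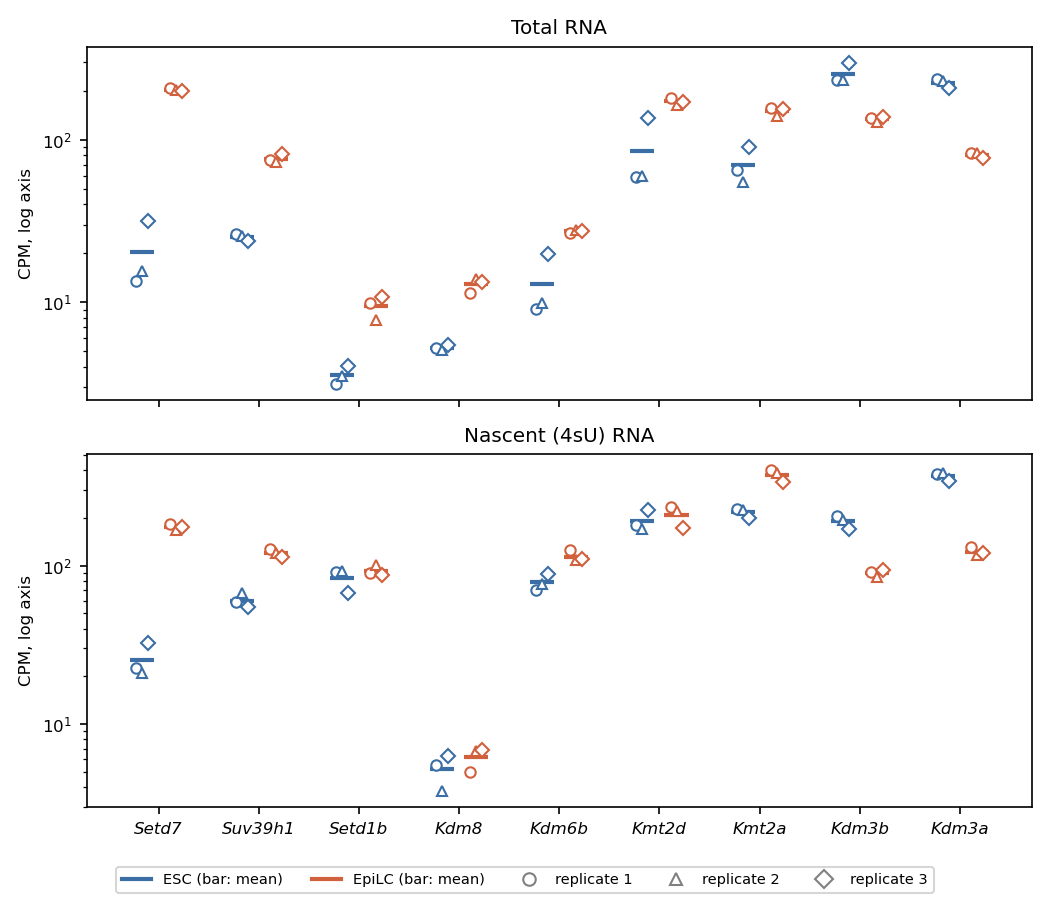
Level in each library (CPM, TMM-adjusted, log axis) of the members called in total or nascent RNA, with ESC and EpiLC libraries of each assay side by side and bars at the group means. The 3 EpiLC total libraries of Setd7 sit between 199 and 207 CPM, all above the ESC libraries at 13.4 to 31.8, and those of Kdm3a sit between 76.6 and 82.5, all below the ESC libraries at 209 to 236.

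The H3K9 methylases moved in both directions. Suv39h1 and Suv39h2 trimethylate H3K9 in pericentric heterochromatin, Ehmt1 (GLP) and Ehmt2 (G9a) act as a pair on H3K9 dimethylation, and Setdb1 silences endogenous retroviruses. In total RNA 1 of 6 rose (background for rises 16.3%). By adjusted p alone 3 were higher and 3 lower (background 63.5% in either direction), with a median change of 0.08. Suv39h1 (chrX:8061171-8074760) was at 26.2, 25.4 and 23.8 CPM in ESC total RNA and at 75.3, 72.7 and 81.4 in EpiLC total RNA. The groups stood well apart and the change was 1.60 ± 0.09 (adjusted p = 1.64e-09), 3.04-fold by the group means. Nascent Suv39h1 was 58.5, 66.9 and 54.8 CPM in ESCs and 126, 121 and 113 in EpiLCs, again without overlap, with a change of 0.99 ± 0.10 (adjusted p = 1.18e-06) that lay just under the call. An antisense gene, Gm14820, covers 11.1% of the exonic bases of Suv39h1. Its reads ran from 61 to 444 per library in ESCs and from 0 to 3 in EpiLCs, and counting was by strand. How far these reads touch the count of Suv39h1 was not tested.

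Suv39h2 was higher in total RNA by 0.42 and Ehmt1 by 0.52, each at an adjusted p under 0.05. Ehmt2 led the group in ESCs by length-scaled level (69.4 ± 6.80 RPKM, 43.4 ± 1.58 in EpiLCs). It stood at 279, 262 and 316 CPM in ESC total RNA and at 185, 172 and 178 in EpiLC total RNA, lower in each EpiLC library (-0.67 ± 0.09, adjusted p = 1.09e-05). Nascent Ehmt2 was 26.2, 28.4 and 37.4 CPM against 29.5, 29.9 and 27, with overlap (-0.05, adjusted p = 0.826; the sign turned under other scalings). Setdb2 was lower in both assays, 34.0, 33.7 and 35.3 against 17.96, 18.4 and 19.5 CPM in total RNA (-0.88 ± 0.10, adjusted p = 2.21e-06), and its nascent change of -0.998 ± 0.12 (adjusted p = 9.53e-06) lay at the edge of the call. Setdb1 was lower in total RNA by 0.25 (adjusted p = 0.0153), with a nascent change of 0.08.

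The H3K9 demethylases were the group with the lowest median in total RNA, -0.64. Kdm3a and Kdm3b remove mono- and dimethyl marks, and the Kdm4 proteins also act on the trimethyl mark. In total RNA 1 of 6 tested members fell (Kdm3a, background for drops 11.2%). By adjusted p alone 4 were lower and 1 higher there (background 63.5% in either direction). In nascent RNA 2 fell (Kdm3a and Kdm3b, background for drops 13.5%). The summed length-scaled level was 175, 172 and 169 RPKM in the ESC total libraries and 114, 121 and 117 in the EpiLC total libraries, without overlap. Kdm3a (chr6:71588972-71632990) was at 236, 230.0 and 209 CPM in ESC total RNA and at 82.2, 82.5 and 76.6 in EpiLC total RNA. Nascent levels were 380.5, 383 and 344 against 130.3, 117 and 120.5 CPM. In both assays every EpiLC library lay far below every ESC library, and the changes were -1.48 ± 0.08 in total (adjusted p = 8.42e-10) and -1.59 ± 0.08 in nascent RNA (adjusted p = 2.82e-09).

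Kdm3b stood at 207, 195 and 171 CPM in ESC 4sU RNA and at 91.4, 85.2 and 93.5 in EpiLC 4sU RNA, no libraries overlapping (-1.09 ± 0.11, adjusted p = 2.45e-06). In total RNA it was 234, 234 and 296.5 against 135, 128 and 138 CPM (-0.91 ± 0.10, adjusted p = 1.24e-06), just short of the call. Kdm4a and Kdm4b were lower in total RNA by 0.63 and 0.65 on the log2 scale and in nascent RNA by 0.54 and 0.69. Kdm4c differed in the other direction, 0.35 in total and 0.49 in nascent RNA, so the Kdm4 genes did not move together. Kdm7a showed a change of 0.14 and overlapping libraries.

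Both H3K27 demethylases were higher in EpiLCs. They are Kdm6a (UTX), a subunit of the Kmt2c and Kmt2d complexes, and Kdm6b (JMJD3), known as an inducible gene. Kdm6b (chr11:69398508-69413675) was at 9.04, 9.92 and 19.9 CPM in ESC total RNA and at 26.6, 27.9 and 27.5 in EpiLC total RNA. ESC replicate 3 lay between the other ESC libraries and the EpiLC libraries, and the rise was 1.26 ± 0.20 (adjusted p = 5.85e-05), 1.52 without that library. Its nascent RNA was 69.9, 76.9 and 88.1 against 125, 108 and 109 CPM (0.55 ± 0.17, adjusted p = 0.0131). Kdm6a had the higher length-scaled level of the pair, 12.8 ± 1.11 RPKM in ESCs and 19.1 ± 0.84 in EpiLCs. Its total libraries were 70.2, 73.9 and 83.0 CPM against 110.5, 111 and 119, none overlapping (0.59 ± 0.10, adjusted p = 0.000144), and its nascent change was 0.51 ± 0.11 (adjusted p = 0.00121).

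Of the H3K36 methylases, Nsd1, Nsd2 and Nsd3 place mono- and dimethyl marks and Setd2 the trimethyl mark behind elongating polymerase. In limma-voom, edgeR and DESeq2 alike, 0 of 4 were called in total RNA (background 27.6% in limma-voom), with 3 at an unadjusted p under 0.05. In limma-voom 9833 of 14731 genes tested had such a p. These 3 members were higher in EpiLCs at an adjusted p under 0.05 as well, Nsd2 by 0.69, Nsd3 by 0.75 and Setd2 by 0.32. Nsd1, the most abundant of them by length-scaled level (51.3 ± 2.75 RPKM in ESCs), went the other way in nascent RNA. Its 4sU libraries were 820.3, 808 and 610.3 CPM in ESCs and 531, 536 and 514 in EpiLCs, lower without overlap (-0.49, adjusted p = 0.000751). In total RNA it was 632, 638 and 696 against 584, 602 and 611 CPM, a change of -0.13 (adjusted p = 0.243). Nsd1 was the single member with an adjusted p under 0.05 in nascent RNA alone.

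Kdm2a, an H3K36 demethylase that binds unmethylated CpG islands, was at 91.2, 96.4 and 97.8 CPM in ESC total RNA and at 117, 117 and 127 in EpiLC total RNA (0.34 ± 0.09, adjusted p = 0.00476). Its nascent difference was larger, 234, 254 and 192 against 348, 344 and 369 CPM (0.65 ± 0.09, adjusted p = 4.79e-05). Dot1l, the H3K79 methylase and the family's enzyme without a SET domain, stood at 35.9, 38.9 and 51.7 against 63.2, 55.0 and 56.8 CPM in total RNA (0.50 ± 0.13, adjusted p = 0.00352). In 4sU RNA it was 80.8, 92.1 and 94.9 against 125, 115 and 96.4 CPM (0.34, adjusted p = 0.0502). For both genes each EpiLC library exceeded each ESC library in both assays.

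The H4K20 methylases moved in both directions. Kmt5a, the monomethylase needed in each cell cycle, was higher in EpiLC total RNA (0.60), as was Kmt5b (0.34), one of the di- and trimethylases. Kmt5c, the other, was lower: 73.8, 78.8 and 80.3 CPM in ESC total RNA against 44.9, 40.3 and 41.1 in EpiLC total RNA, without overlap (-0.88 ± 0.11, adjusted p = 7.5e-06). Nascent Kmt5c was 21.5, 30.2 and 32.5 against 13.4, 19.3 and 11.6 CPM (-0.89 ± 0.20, adjusted p = 0.00215). By length-scaled total level Kmt5c (27.5 ± 1.20 RPKM) exceeded Kmt5a (23.1 ± 2.16) in ESCs and was below it in EpiLCs (14.9 ± 0.87 against 35.1 ± 0.31).

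Among the other SET and JmjC proteins lay the largest change of all members. Setd7 (chr3:51515319-51560879) is a monomethylase of H3K4 in vitro that also methylates many non-histone proteins. It stood at 13.4, 15.6 and 31.8 CPM in ESC total RNA and at 207, 202 and 199 in EpiLC total RNA. Every EpiLC library lay far above every ESC library, and by the group means the rise was 10-fold (3.51 ± 0.19 on the log2 scale, adjusted p = 1.44e-09, 3.80 without ESC total replicate 3). Nascent Setd7 was 22.7, 21.1 and 32.3 against 182, 167 and 175 CPM, a rise of 6.89-fold (2.84 ± 0.25, adjusted p = 4.12e-07). The total change was higher than that of 97.3% of all genes tested and the nascent change higher than that of 96.9%.

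Kdm8, a JmjC protein whose activity on histones is disputed, rose in total RNA from 5.21, 5.08 and 5.41 to 11.4, 13.9 and 13.3 CPM (1.30 ± 0.15, adjusted p = 2.04e-06). In 4sU RNA it was 5.52, 3.76 and 6.24 against 4.95, 6.78 and 6.82 CPM, and the cell types overlapped (0.31 ± 0.26, adjusted p = 0.341). Setd6, which methylates the NF-kB subunit RelA, led this group in ESCs by length-scaled level (56.9 ± 9.38 RPKM). It was lower in EpiLC total RNA, 86.9, 88.9 and 116 against 50.2, 57.5 and 51.4 CPM (-0.85 ± 0.14, adjusted p = 0.000104), and overlapped in 4sU RNA (39.1, 54.6 and 68.3 against 45.7, 47.9 and 41.8 CPM). Kmt2e, whose SET domain has no clear activity, was higher by 0.80 in total and 0.63 in nascent RNA, and Setd5 by 0.42 and 0.47. Setd4 was lower by 0.37 in total RNA. Setd3, an actin histidine methylase, had overlapping libraries and a change of -0.03, whose sign turned when libraries were scaled by their totals. Nsdhl, the sterol enzyme, had a total change of -0.23 and a nascent change of 0.37, neither called.

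Direction was largely shared between the assays. Total and nascent changes had the same sign in 35 of 42 members. All 25 members with an adjusted p under 0.05 in both assays had the same sign in both, 9 members passed in total RNA alone, 1 in nascent RNA alone, and 7 in neither. Across the 42 members Spearman's rho of the total and nascent change was 0.84, and 0.83 across all genes tested. Genes are not independent replicates and these are descriptions. The shares of all genes tested with the same sign, or passing in 1 assay alone, were not computed. The counts therefore show nothing particular to the members. The assays parted most for Setd1b, Kmt2d and Kdm8, which rose in total RNA with nascent log2 changes of 0.14 to 0.31.

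The interaction of cell type and assay gave the mRNA stability change, the total change minus the nascent change. For 1 of 42 members stability rose (2.38%, against 1.54% of all genes tested in either direction and 1.24% for rises). By adjusted p alone there were 2 (4.76%, background 4.6%), Setd1b and Suv39h1. The median was 0.08 for members and 0.11 for all genes. The one called was Setd1b, with a stability change of 1.26 ± 0.25 (adjusted p = 0.0153). Per pair of total and 4sU libraries with the same number, its log2 ratio of total to 4sU was -4.86, -4.71 and -4.05 in ESCs and -3.19, -3.70 and -3.02 in EpiLCs, every EpiLC value above every ESC value. The call was lost without ESC total replicate 1 (adjusted p = 0.0555) or without EpiLC total replicate 3 (adjusted p = 0.0533).

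For Suv39h1 the ratio was -1.16, -1.40 and -1.20 in ESCs and -0.75, -0.73 and -0.47 in EpiLCs, a stability change of 0.61 ± 0.13 (adjusted p = 0.0205) under the fold threshold. Kmt2d had a change of 1.03 ± 0.34 that missed the threshold (adjusted p = 0.0897). Its ratios were -1.62, -1.51 and -0.71 in ESCs, where replicate 3 stood apart, and -0.37, -0.43 and -0.02 in EpiLCs, and it was called without ESC total replicate 3 (1.39). Kdm8 stood at -0.08, 0.44 and -0.21 against 1.20, 1.04 and 0.96 (change 1.00, adjusted p = 0.0707), and it too was called without ESC total replicate 3. With same-numbered 4sU and total libraries of a cell type taken as a block, 3 members were called: Setd1b (1.30, adjusted p = 0.00567), Kmt2d (1.00, adjusted p = 0.00785) and Kdm8 (1.00, adjusted p = 0.0386). Calls rose over all genes tested too. The share called higher was 2.97% with that block and 3.89% without ESC total replicate 3, against 1.24% in the main fit. For Ehmt2 the change was -0.62 (adjusted p = 0.06). By limma-voom, edgeR and DESeq2, 0 members were called lower in stability (background 0.305% in limma-voom), with 5, 5 and 6 of them lower at an unadjusted p under 0.05.

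Within each cell type the members spread over a wide range of relative stability, log2 of total over 4sU, which compares genes within a pair of scaled libraries and gives no decay rate. By the same call on this ratio, 9 of 42 members were above 0 in ESCs (background 23.7%) and 11 below (background 26.8%), and in EpiLCs 8 were above (background 24.2%) and 8 below (background 23.3%), or 5 and 10 without ESC total replicate 1. In both states 6 were high: the H3K9 methylases Ehmt2 and Setdb1, the H3K9 demethylases Kdm4a and Kdm4b, Kdm1a and Kmt5c. In both states 8 were low: Kdm2a, Kdm6b, Kmt2a, Kmt2e, Kmt5b, Nsd3, Setd1a and Setd1b. Ehmt2 was at 3.41, 3.20 and 3.08 in ESCs and 2.65, 2.53 and 2.72 in EpiLCs, above 99.8% and 98.8% of genes tested. Setd1b lay at the other end, above only 1.62% in ESCs and 3.83% in EpiLCs.

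Kdm6b stood at -2.95, -2.96 and -2.15 in ESCs and -2.23, -1.96 and -1.99 in EpiLCs, and Kmt2e at -2.61, -2.87 and -1.99 against -2.25, -2.30 and -2.49. Kdm1a was above 0 in all pairs, 1.42 to 1.66 in ESCs and 1.43 to 1.54 in EpiLCs. The order of members was kept between the states (Spearman's rho 0.95 over 42 members, which share their libraries within a state). The median of members lay below that of all genes by a difference of -0.406 ± 0.115 in ESCs and -0.296 ± 0.061 in EpiLCs (SD, n = 3). This direction depends on having an expression filter. The fitted difference was -0.35 in ESCs and -0.33 in EpiLCs with the filter used, and -0.20 and -0.24 at 1 CPM in 3 libraries. With no filter it reversed to 0.63 in ESCs and 0.49 in EpiLCs.

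**Figure D3:**
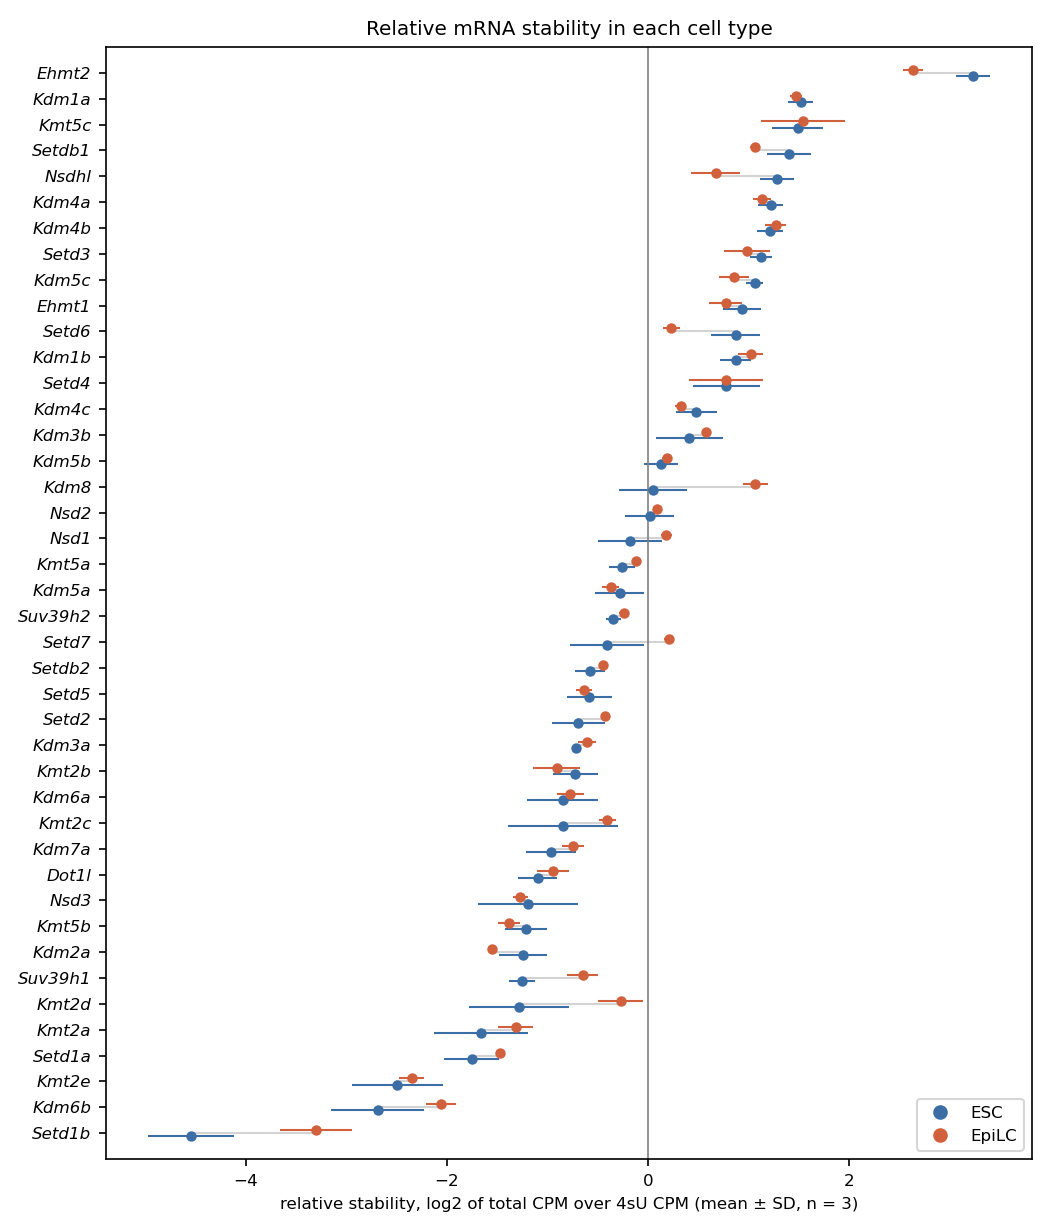
Relative mRNA stability (log2 of total over 4sU, horizontal axis) of the 42 tested members in ESCs and EpiLCs, ordered by their value in ESCs; points are means over 3 pairs of libraries and bars 1 SD. Ehmt2 lies at one end (pairs from 3.08 to 3.41 in ESCs) and Setd1b at the other (-4.86 to -4.05 in ESCs), and for Setd1b, Kmt2d and Kdm8 the EpiLC point lies clear to the right of the ESC point.

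The members are long genes, and length went with these measures. Their median exonic length was 6633 bases (1707 to 19830), against 3056 for all genes tested. Across the 42 members, Spearman's rho of ESC stability with exonic length was -0.60, where it was -0.03 across all genes tested. The mRNA change went with length at a rho of 0.38 in members (0.44 without ESC total replicate 3) and 0.13 in all genes. The ratio of ESC total replicate 3 to the other ESC total libraries also went with length, at a rho of 0.44 in members and 0.14 in all genes. Points share libraries and gene families, so these are descriptions, and the part of length in the members' changes was not tested.

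**Figure D4:**
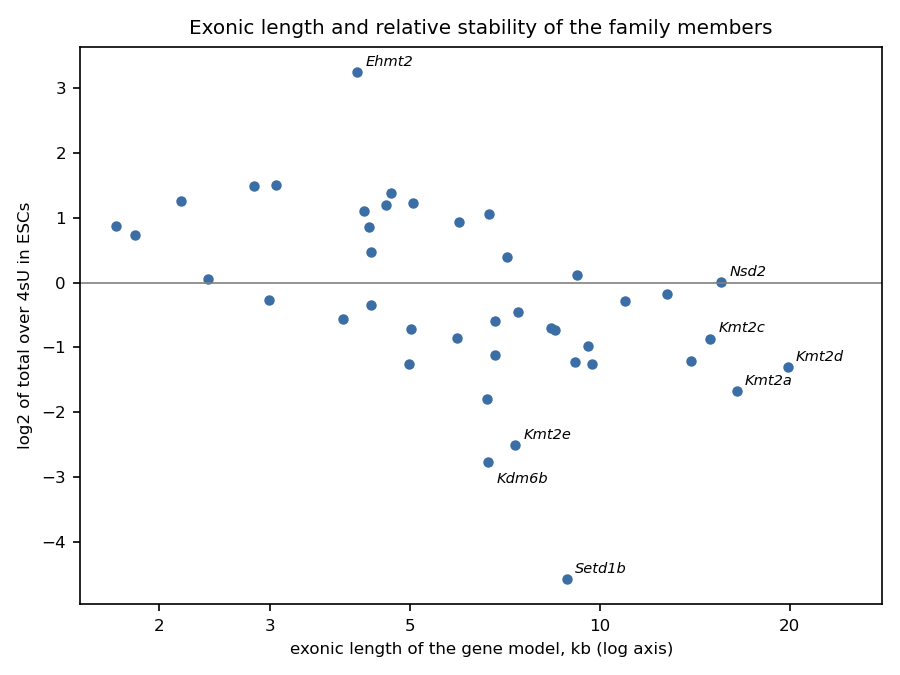
Relative mRNA stability in ESCs (log2 of total over 4sU, fitted by limma-voom, vertical axis) against exonic length (kilobases, log axis) for the 42 tested members. The longer members lie lower (Spearman's rho -0.60), with Ehmt2 at the top (3.25) and Setd1b at the bottom (-4.57).

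Close relatives within the families were compared with each other. Reads per base of exon of 16 paralog pairs were set as a log2 ratio in each library, which cancels the library's scaling. The cell types were compared by an exact permutation test over 3 against 3 libraries (two-sided), whose smallest p is 0.1. The total libraries of the cell types did not overlap for 14 of 16 pairs and the 4sU libraries for 11. Single genes did not overlap in 68.6% and 60.7% of cases, and the share over other gene pairs was not computed, so these counts describe the pairs and show nothing particular to them. Each of the non-overlapping pairs had that smallest p, and adjusted over the 16 pairs the lowest p was 0.114 in total and 0.145 in 4sU RNA, so that no pair could pass 0.05 in this design. Each count was divided by the exonic length of its gene model, so a ratio compares length-scaled levels and rests on those lengths.

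Among H3K9 methylases, Suv39h2 over Suv39h1 went from 1.47 ± 0.11 in ESC to 0.29 ± 0.11 in EpiLC total RNA (SD, n = 3), a difference of -1.18, and by -0.68 in 4sU RNA. Ehmt1 over Ehmt2 went from -1.59 ± 0.19 to -0.39 ± 0.09 in total RNA (1.20) and from 0.70 ± 0.48 to 1.47 ± 0.20 in 4sU RNA. In both pairs the member with fewer reads in ESC total RNA gained on the other. Among H3K4 methylases, Kmt2b over Kmt2a went from 1.44 ± 0.17 to 0.27 ± 0.08 (-1.16), and Kmt2c over Kmt2d from 0.85 ± 0.22 to -0.19 ± 0.08 (-1.04). In 4sU RNA the first of these did not overlap (-0.63) and the second did (-0.48).

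Kmt5b over Kmt5c went from -2.18 ± 0.07 to -0.96 ± 0.12 in total RNA (1.22) and differed by 1.43 in 4sU RNA. Among demethylases, Kdm5b over Kdm5a went from 2.00 ± 0.09 to 0.93 ± 0.08 (-1.07), and Kdm4c over Kdm4a from -0.27 ± 0.14 to 0.71 ± 0.04 (0.98), each with a 4sU difference of the same sign. For Kdm4b over Kdm4a the cell types overlapped, at -1.84 ± 0.20 and -1.84 ± 0.13. Kdm6b over Kdm6a also overlapped in total RNA, since ESC replicate 3 (-2.23) lay at the EpiLC values (-2.28 to -2.16), while the other ESC libraries were at -3.12 and -3.06. Setd1b over Setd1a parted in total RNA (-2.45 ± 0.18 to -1.76 ± 0.38) and overlapped in 4sU RNA, where the pair was near even (0.32 ± 0.21 and 0.06 ± 0.03). An annotated same-strand gene without reads covers 53.3% of the exonic bases of Setd1a, and reads on both genes are left out by such counting, so the level of Setd1a and this ratio are uncertain.

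**Figure D5:**
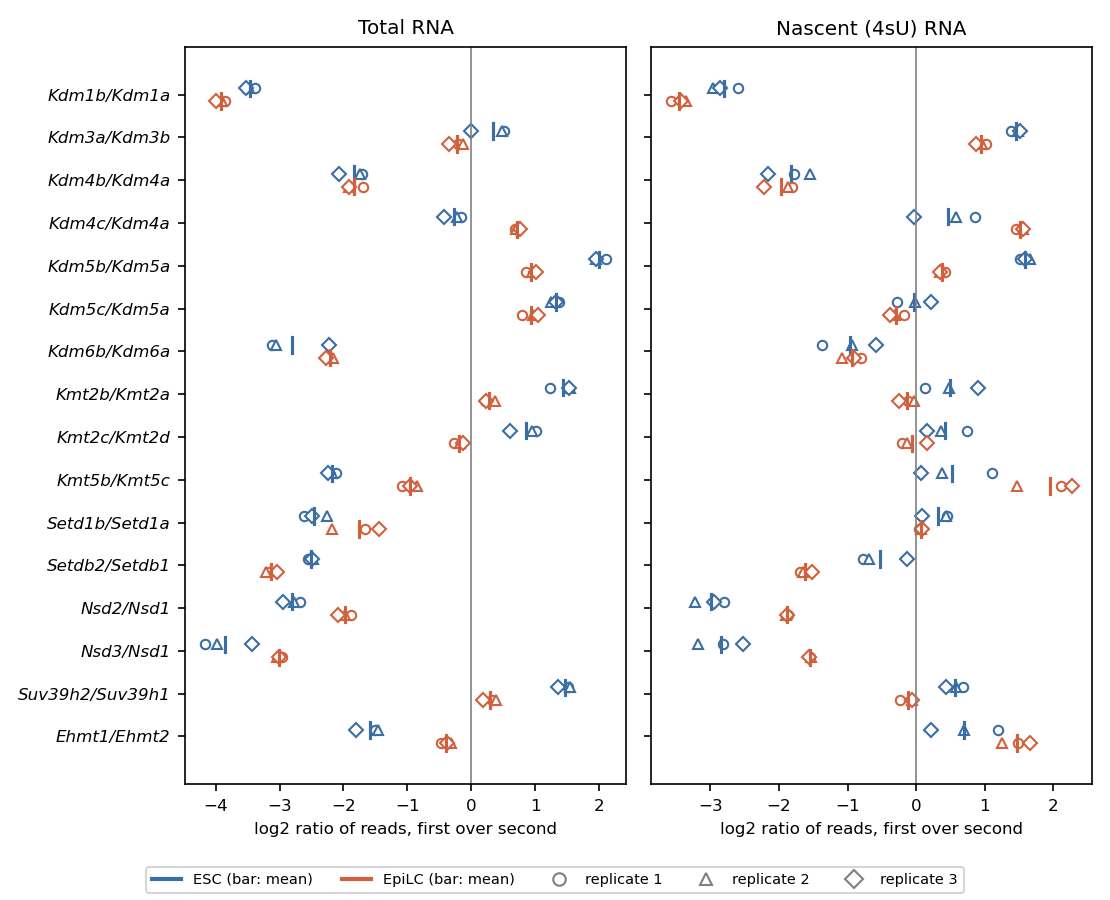
Log2 ratio of reads per base of exon (horizontal axis) for 16 paralog pairs in each total and each 4sU library, ESC and EpiLC, with bars at the group means. In total RNA the ESC and EpiLC libraries stand apart for 14 pairs, with differences from -1.18 (Suv39h2 over Suv39h1) to 1.22 (Kmt5b over Kmt5c), and they overlap for Kdm4b over Kdm4a and Kdm6b over Kdm6a.

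Partners and relatives outside the name rule were taken from 6 lists of 61 genes, of which 59 were tested. In total RNA 5 rose and 6 fell (18.6%, against 27.6% of all genes tested). In nascent RNA 3 rose and 5 fell (background 11.9% for rises and 13.5% for drops). For stability 0 were called by limma-voom, edgeR or DESeq2 (14, 14 and 15 at an unadjusted p under 0.05). In limma-voom 1.54% of all genes tested were called for stability, and 3379 of 14731 had such a p. COMPASS subunits, partners of the H3K4 methylases, had 2 of 12 that fell in total RNA (background for drops 11.2%), Wdr5 (-1.04) and Rbbp5 (-1.14). Their list median was -0.48, where the enzymes themselves had a median of 0.94. Of 6 DOT1L partners Mllt6 (-1.07) and Aff1 fell, against the same background. Aff1 went from 175 ± 22.2 to 21.9 ± 1.01 CPM (-2.99 ± 0.16, adjusted p = 1e-09). The list median was -0.58, beside the change of 0.50 in Dot1l.

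Other JmjC demethylases held 3 rises in 9 in total RNA (background for all lists 16.3% for rises and 11.2% for drops). Jmjd1c, a relative of Kdm3a and Kdm3b, went from 205 ± 6.39 to 540.3 ± 21.4 CPM in total RNA (1.39 ± 0.10, adjusted p = 2.42e-08) and rose in nascent RNA as well (1.20), against the drop of its relatives. Phf2, an H3K9 demethylase, rose by 1.06, and Hr, at under 10 CPM and named after its values were seen, by 1.13. Of 11 H3K9 and HP1 partners, Zfp644, which guides G9a and GLP, rose by 1.10, and Cdyl2, a chromodomain protein, fell from 87.6 ± 15.6 to 4.71 ± 1.00 CPM (-4.18 ± 0.26, adjusted p = 4.1e-09). The 12 other lysine methylases tested held 1 rise and 1 drop, Mecom (2.22) and Prdm16 (-2.10), both under 10 CPM on average and named after their values were seen. The 9 LSD1 partners held 0 calls in total RNA by limma-voom (background 27.6%), 0 by edgeR and 1 by DESeq2, and their median was 0.06. In limma-voom 8 of them had an unadjusted p under 0.05, as had 9833 of 14731 genes tested.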

How the data were processed

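Per the labels, the authors deposited 1 table of raw read counts per gene for 12 libraries. Adapters were trimmed with cutadapt 1.14, reads were aligned to mm10 with STAR 2.5.3a, and unique alignments were counted by strand with featureCounts 1.5.3 over GENCODE M14 without ribosomal RNA, so near-identical copies lose reads. The 92 spike-in entries had 0 reads. Symbols came from GENCODE M21 (99.6% of IDs).

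Genes reaching 3 CPM in 3 or more libraries were fitted together by limma-voom (limma 3.58.1, TMM from edgeR 4.0.16, R 4.3.3) on 4 group means, with Benjamini-Hochberg adjustment over 14731 genes. Adjusted p-values of genes are from this fit unless a left-out library, a block or another tool is named; those of paralog ratios are adjusted over the pairs. Stability was the interaction of cell type and assay. Paralog ratios used reads plus 0.5, divided by exonic length. Named were members called in any contrast, the member of each role with the highest length-scaled ESC total level, and partners called in total RNA at a mean of 10 CPM or more; others are given by their changes. The members and lists were chosen with earlier results of these data known. The paper calls the replicates biological, while the labels number them without saying that cultures were separate. How much of the spread behind the p-values is technical cannot be told, and counting limits cover counting error only. The model was tested on simulated counts. Alternatives covered the scaling, the filter, edgeR, DESeq2 1.42.0, quality weights, thresholds, replicate blocks and each library left out. Promoter windows came from RefSeq (GRCm38.p6). Python 3.11.15, numpy 2.4.6, scipy 1.17.1, pandas 2.3.3 and matplotlib 3.10.9 were used.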

Additional observations from a re-analysis of the deposited data

Results flagged for a closer look

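Setd1b, the H3K4 methylase with the lowest length-scaled level among the tested members in ESC total RNA, differed between the assays in how it changed from ESCs to EpiLCs. The total change of 1.42 and the nascent change of 0.15 differed by 1.26 on the log2 scale (limma-voom interaction, adjusted p = 0.0153), and the total over 4sU ratio was higher in all 3 EpiLC pairs of libraries than in all 3 ESC pairs. The call was lost without ESC total replicate 1 or without EpiLC total replicate 3. It was also lost with no expression filter and under treat, a test against the fold threshold. The ESC total level of Setd1b lay near the 3 CPM of the filter.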

How the results depend on the processing

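Member calls in total RNA (7 higher, 1 lower) were the same genes under each other scaling, filter, tool, weighting and block tried. Taken by adjusted p alone they were 22 and 12 (background 31.4% and 32.1%). Under treat, a test against the fold threshold, they were 2 higher and 1 lower (background 9.71% and 6.58%). Nascent members called higher were 2 under median-of-ratios scaling, TMM within each assay, library totals, no expression filter, DESeq2 and 4sU libraries alone (Suv39h1 added), 17 by adjusted p alone, and 1 to 2 with each library left out. Backgrounds for rises were 8.86% with no expression filter and 12.2% to 12.8% in the others with 2. They were 23.7% by adjusted p alone and 11.5% to 12.7% with each library left out. Nascent members called lower were 9 by adjusted p alone, 1 under treat, 3 in edgeR and at 1 CPM (Setdb2 added), and 2 to 3 with each library left out (Setdb2 or Kmt5c added). Backgrounds for drops were 28.8% by adjusted p alone, 5.89% under treat, 14.1% in edgeR and 14.3% at 1 CPM. With each library left out they were 12.4% to 13.9%. Members with higher stability were 0 with no expression filter (limma-voom, 5 at an unadjusted p under 0.05) and 0 under treat, 2 with quality weights, by adjusted p alone and without both ESC replicate 3 libraries, and 0 to 3 with each library left out. Backgrounds for rises were 0.302% with no expression filter, 0.0136% under treat, 5.01% with quality weights and 2.72% by adjusted p alone. They were 4.56% without both ESC replicate 3 libraries and 0.38% to 3.89% with each library left out. Of 59 partner genes tested, those called in total RNA were 46 by adjusted p alone (background 63.5%) and 4 under treat (background 16.3%). With no expression filter, which adds low-count genes to the background, the members' median stability minus that of all genes reversed to 0.63 in ESCs and 0.49 in EpiLCs.

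Same-number correlations were 0.22 to 0.46 between ESC assays, 0.02 to 0.09 between EpiLC assays and -0.13 to 0.05 across cell types. Between ESC assays, replicates 1 and 2 taken against each other gave 0.12 and 0.35, and replicate 3 against either gave -0.43 to -0.20. So ESC replicate 3 stood apart from replicates 1 and 2 in both assays, and pairing by number was not clear within those. The labels do not say what the numbers mark. With the replicate number as a block, 7 members were higher and 1 lower in total RNA (background 16.3% and 11.4%). In nascent RNA 1 was higher and 3 lower (Setdb2 added, background 12% and 14%), and 1 was higher in stability (background 1.91%). With a block per cell type and replicate number, the stability calls were 3 (Kdm8, Kmt2d and Setd1b, background for rises 2.97%).

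Small changes that were not called turned sign, and the cause was not tested. Nascent Ehmt2 (-0.05) became 0.011 under median-of-ratios scaling, 0.017 under TMM within each assay, 0.0069 with weights, 0.013 in 4sU libraries alone, 0.081 without both ESC replicate 3 libraries and -0.14 to 0.080 with each library left out. Total Kmt2b (-0.02) became 0.071 under library totals, 0.17 with weights, 0.21 without both ESC replicate 3 libraries and -0.17 to 0.21 with each library left out. Among stability changes, Kdm1a became 0.024 under library totals, 0.0085 with weights and 0.025 without both ESC replicate 3 libraries. Kdm6a became -0.0036 under median-of-ratios scaling, -0.018 with no filter and -0.044 to 0.18 with each library left out. Kmt5c became -0.081 under median-of-ratios scaling, -0.052 under TMM within each assay, -0.090 with no filter, -0.010 at 1 CPM, -0.070 with DESeq2, -0.030 with weights, -0.0050 with the replicate block, -0.070 without both ESC replicate 3 libraries and -0.13 to 0.23 with each library left out. Dot1l ran from -0.017 to 0.30 and Kmt2b from -0.39 to 0.045 with each library left out. So did the ratios of Kdm4b over Kdm4a (-0.12 to 0.068 in total, -0.30 to 0.0042 in 4sU RNA) and Kdm6b over Kdm6a in 4sU RNA (-0.18 to 0.22). The 4sU depth limits low members such as Kdm8, at under 7 CPM there.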

Other observations

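Kdm5d, the Y-linked relative of Kdm5c, had 0 to 5 reads per library, while 3 other Y-linked genes, looked up after that value was seen, were counted in every library: Eif2s3y at 64 to 871 reads, Uty, a relative of Kdm6a, at 108 to 931 and Ddx3y at 208 to 1878. Kdm5c itself had 518 to 5645 reads. The cause was not tested.

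Gm14820, the antisense gene at Suv39h1, had 61 to 444 reads per library in ESCs and 0 to 3 in EpiLCs, the opposite direction to Suv39h1 in both assays.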
